A study of Mus musculus with 38 samples.

Results

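Decreasing enhancers that kept an H3K27ac peak are distal sites in mouse cortical neurons that the authors classed as losing H3K27ac on depolarisation, but that still lay inside a listed H3K27ac peak after it. They were found by position: a site of the decreasing class was a member when it lay between the start and end of a KCl H3K27ac peak. The rule chose 248 of the 738 decreasing sites (33.6%), or 2.10% of all distal sites that carried CBP and H3K4me1, 11582 of which were not members. They are called kept-peak enhancers here, and the other 490 decreasing sites are called lost-peak enhancers. Every position is that of genome build mm9.

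Enhancers are stretches of DNA away from gene starts that raise the transcription of genes they contact. H3K4me1 (a single methyl group on lysine 4 of histone H3) marks enhancers whether active or not, and CBP is a co-activator that acetylates histones, lysine 27 of histone H3 included. H3K27ac marks enhancers and promoters in use, so its gain or loss is read as a change in their activity. c-Fos and FosB are members of the AP-1 family that neuronal activity induces, and each binds DNA paired with a Jun protein such as JunB.

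The study mapped these marks and proteins by chromatin immunoprecipitation and sequencing (ChIP-seq) in cortical neurons from C57BL/6 mouse embryos of day 16.5, used at day 7 in culture. All neurons were first silenced overnight with TTX (1 µM), which blocks sodium channels, and DL-AP5 (100 µM), which blocks NMDA receptors. The unstimulated group stayed silenced, and the KCl group was depolarised with KCl for 2 h. H3K27ac came from biological samples 1 and 2, merged by the authors into 1 peak list per condition, so it has no replicates. AP-1 proteins came from biological samples 3 to 6, with 1 peak list per library: 7 unstimulated, 11 after KCl without an shRNA against an AP-1 gene, and 4 after KCl with c-Fos or FosB targeted by an shRNA. The antibody was sc48 for FosB, sc46 for JunB, and either sc52 or sc7202 for c-Fos. The shRNA libraries came from biological samples 5 and 6, which also gave libraries with a control shRNA, and KCl was given in each of them. Libraries of 1 biological sample are called 1 culture here, though the labels do not say whether they shared a culture.

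The AP-1 lists held 557 to 28885 peaks, and the depth behind them is unknown, because the lists hold peaks and not reads. Whether the cultures held neurons alone was not analysed here, since peak lists carry no marker levels. In such bulk lists, fewer cells with a mark and less of the mark per cell cannot be told apart.

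The kept-peak enhancers were chosen by their H3K27ac: the authors' class and the presence of a KCl peak. Their H3K27ac values are therefore a description and carry no test. Silenced neurons held these sites in broad, high-scoring peaks. The unstimulated peak had a median width of 3264 bp (quartiles 2687 and 4194 bp, range 1660 to 15398 bp), against 2327 bp over all 30239 unstimulated peaks. Its median score was 722 (range 69.3 to 3100), against 257 over all of them. The score is the authors' own value and grows with the negative log10 of the p-value of a peak.

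After KCl the peak at these sites was a narrow and low-scoring one. Its median width was 2195 bp (range 985 to 14149 bp), against 2403 bp over all 29418 KCl peaks. Its median score was 138 (range 50.6 to 2532), against 289 over all of them. Within each list the members thus lay above the middle without stimulation and below it after KCl. After KCl 85 of the 248 (34.3%) had a KCl score under 100, against 1 of 248 without stimulation. Of the 800 enhancers that the authors classed as constant, 9.6% had a score under 100 after KCl and 10.6% without stimulation. A fall in score is what the choice of decreasing sites favours.

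The KCl peak was narrower than the unstimulated peak at 244 of 248 kept-peak enhancers (98.4%), where the share over all 4231 CBP sites in peaks of both conditions was 46.8%. The median ratio of KCl to unstimulated width was 0.693 (quartiles 0.564 and 0.798, range 0.218 to 1.22). At constant enhancers, which the authors classed as unchanged, the same ratio had a median of 0.996 over 800 sites. The KCl peak lay wholly inside the unstimulated peak at 225 kept-peak enhancers (90.7%; 30.7% of the 4231 sites), and the reverse occurred at 0. At 45 of them (18.1%; 2.51% of the 4231 sites) the KCl peak had at most 50% of the former width. At 15 (6.05%; 2.36% of the 4231 sites) the unstimulated peak overlapped at least 2 KCl peaks.

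**Figure D1:**
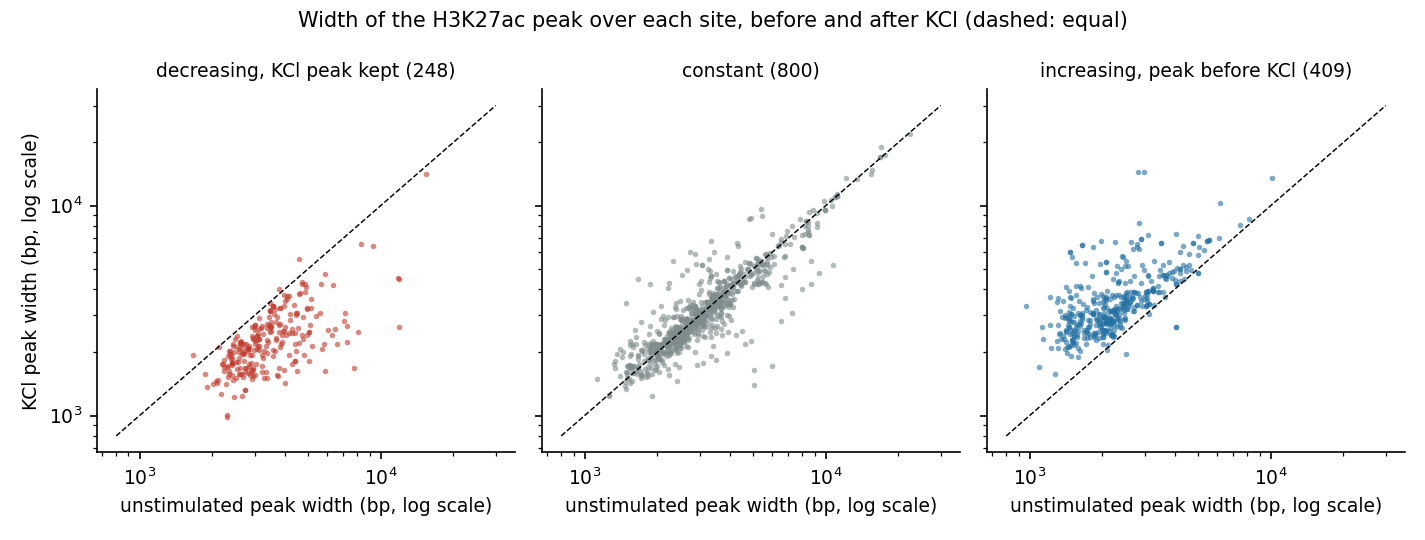
Width of the KCl H3K27ac peak (y axis, bp, log scale) against the width of the unstimulated peak (x axis, bp, log scale) at each site, for kept-peak, constant and pre-acetylated increasing enhancers. Each point is 1 site and the line marks equal widths; 244 of 248 kept-peak enhancers fall below it, against 414 of 800 constant enhancers.

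The spread among members was wide. The site at position 77685910 of chromosome 11 kept the least width: its peak covered 7735 bp without stimulation and 1684 bp after KCl, and its score was 2149 and then 102. At position 3243840 of chromosome 17 the peak covered 11957 bp and then 2636 bp. At the other end, the peak at position 98688275 of chromosome 13 covered 4585 bp and then 5579 bp, the widest relative to its unstimulated peak among the 248. The highest KCl score, 2532, was that of position 113418175 of chromosome 9, whose unstimulated score was 3100. The broadest peak, at position 86019105 of chromosome 6, covered 15398 bp without stimulation and 14149 bp after KCl.

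Lost-peak enhancers started from smaller peaks. Their unstimulated peaks had a median width of 2202 bp and a median score of 145. The share of decreasing enhancers that kept a peak was 0.649% (1 of 154) for unstimulated scores from 50 to 100, 6.04% (11 of 182) from 100 to 200, and 29.1% (43 of 148) from 200 to 400. It was 63.2% (79 of 125) from 400 to 800 and 88.4% (114 of 129) at 800 or more. Over all 5084 CBP sites in an unstimulated peak, 83.2% also lay in a KCl peak, a share not computed by score range. The KCl list holds no score under 50, so a low unstimulated score left a decreasing site little room to keep a listed peak. How much of the climb this limit makes was not tested.

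**Figure D2:**
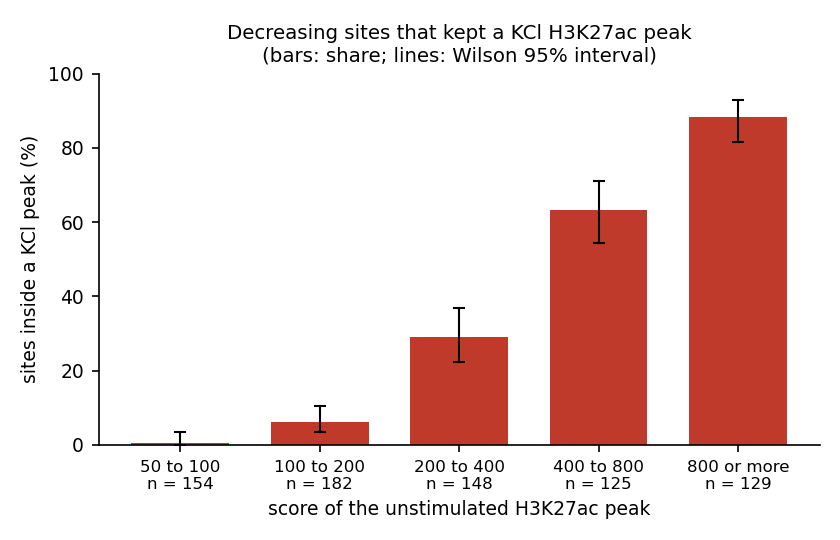
Share of the 738 decreasing enhancers that lay inside a KCl H3K27ac peak (y axis, percent, from 0) by the score of their unstimulated peak (x axis, 5 ranges). Bars are shares and lines are Wilson 95% intervals, which cover counting error only. The share climbs from 0.649% in the lowest range to 88.4% in the highest. The KCl list holds no score under 50, which limits the share in the low ranges.

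The rule has a sharp edge, but few sites lay near it. The 3 members closest to the edge of their KCl peak were 24, 26 and 27 bp inside it, and 5 of the 248 were within 100 bp. The 3 lost-peak enhancers closest to a KCl peak were 2, 40 and 141 bp outside it. The unstimulated peak overlapped a KCl peak that did not hold the site at 39 of 490 lost-peak enhancers (7.96%). The median distance from a member to the edge of its KCl peak was 878 bp, and to its centre 218 bp.

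Kept-peak enhancers were spread over the 19 autosomes, from 4 on chromosome 14 to 24 on chromosome 1, and 0 lay on the X chromosome, which held 37 of all CBP sites. They occupied 239 KCl peaks, of which 231 held 1 member, 7 held 2 and 1 held 3. That last peak, on chromosome 8 from 92394934 to 92398277, held members at 92395885, 92396825 and 92397405 and had a score of 295. Members that share a peak share its width and score and are not independent of each other.

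Some members had other decreasing enhancers close by. Within 10 kb, 21 of 248 kept-peak enhancers (8.47%) had another kept-peak enhancer, against 1.02% of all CBP sites, and 12 (4.84%) had a lost-peak enhancer, against 1.41%. Other classes also lay near their own kind. Within 10 kb, 9.80% of lost-peak enhancers had another lost-peak enhancer. Another constant enhancer lay within 10 kb of 11.9% of constant enhancers, against 3.77% of all CBP sites. An enhancer classed as increasing lay within 10 kb of 2 members (0.806%), against 6.38% of all sites, and within 50 kb of 16 (6.45%), against 15.5%. At lost-peak enhancers these shares were 1.22% and 6.53%, and at constant enhancers 3.75% and 12.6%. The density of sites overall differed less: 93 members (37.5%) had any other CBP site within 10 kb, against 33.4% of all sites. The unstimulated peak of a member also held another member in 19 of 248 cases (7.66%), a lost-peak enhancer in 5, a constant enhancer in 5 and an increasing enhancer in 0. The KCl peak of a member held another member in 17 cases (6.85%), so close neighbours often shared a peak. Such shares were not computed over all CBP sites, so whether they are unusual was not tested. These counts use the authors' classes and carry no test.

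Before stimulation AP-1 peaks were rare at kept-peak enhancers. The AP-1 libraries came from other cultures than the H3K27ac lists, and the rule used no AP-1 list. Whether the authors' classes drew on AP-1 is not known from the labels. Unstimulated c-Fos peaks held 6 of 248 members (2.42%; 2.09% of all CBP sites) with sc52 in biological sample 3 and 6 (2.42%; 0.930% of all sites) in biological sample 4. With sc7202 they held 2 members (0.806%; 0.380% of all sites) in biological sample 3. In biological sample 4 they held 0 (0.0254% of all sites), which allows a share of up to 1.21%. All 4 libraries were low.

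After KCl, c-Fos peaks held many more of them. With sc52 they held 55 members (22.2%; 35.7% of all sites) in biological sample 3 and 21 (8.47%; 14.4%) in biological sample 4. With sc7202 they held 87 members (35.1%; 47.9%) in biological sample 3 and 50 (20.2%; 33%) in biological sample 4. All 4 KCl libraries lay above all 4 unstimulated libraries.

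The mean share of kept-peak enhancers inside a c-Fos peak was 21.5% ± 10.9 after KCl (SD, n = 4 libraries) and 1.41% ± 1.21 without stimulation (SD, n = 4). The difference was 20.1 percentage points (two-sided exact permutation of the library labels, 70 arrangements, p = 0.0286, the smallest possible). The 4 libraries per condition come from 2 cultures, so n counts each culture with both antibodies. With 1 mean per culture, an alternative chosen after seeing the data, the exact permutation p was 0.333 (n = 2 against 2), and the block over antibody and culture gave an exact p of 0.13, each the smallest possible. Every c-Fos list was longer after KCl, and with each list limited to its 557 best-scoring peaks the difference was 0.40 points (exact permutation p = 0.429). With peaks of score 100 or more it was 9.88 points (exact permutation p = 0.0286), and without biological sample 3 it was 13.1 points.

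FosB and JunB peaks were also listed at more of these sites after KCl. FosB peaks held 0 members (0.321% of all sites; up to 1.21% by the count of 0) and 11 members (4.44%; 3.19%) in the unstimulated libraries of biological samples 3 and 4. They held 20 (8.06%; 14.0%) and 21 (8.47%; 10.2%) after KCl. The KCl values lay above both unstimulated values, with means of 8.27% ± 0.29 and 2.22% ± 3.14 (SD, n = 2 each; exact two-sided permutation p = 0.333, the smallest possible). The FosB difference of 6.05 points was 2.42 points with scores of 100 or more and 0.20 points with lists of the same length (2041 peaks).

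JunB was mapped in 1 library per condition, from biological sample 4, so its difference has no replicate check. Its peaks held 10 members (4.03%; 5.14% of all sites) without stimulation and 81 (32.7%, Wilson 95% interval 27.1% to 38.7%; 41.0% of all sites) after KCl. The difference of 28.6 points was 15.3 points with scores of 100 or more and 2.82 points with lists of the same length (3126 peaks).

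The libraries with control shRNA gave further KCl values. c-Fos peaks held 52 members (20.97%; 35.6% of all sites) in biological sample 5 and 40 (16.1%; 33.3%) in biological sample 6. FosB peaks held 75 (30.2%; 41.5%) and 39 (15.7%; 25%). In all 11 KCl libraries without an shRNA against an AP-1 gene, the share of kept-peak enhancers was below the share of all CBP sites.

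**Figure D3:**
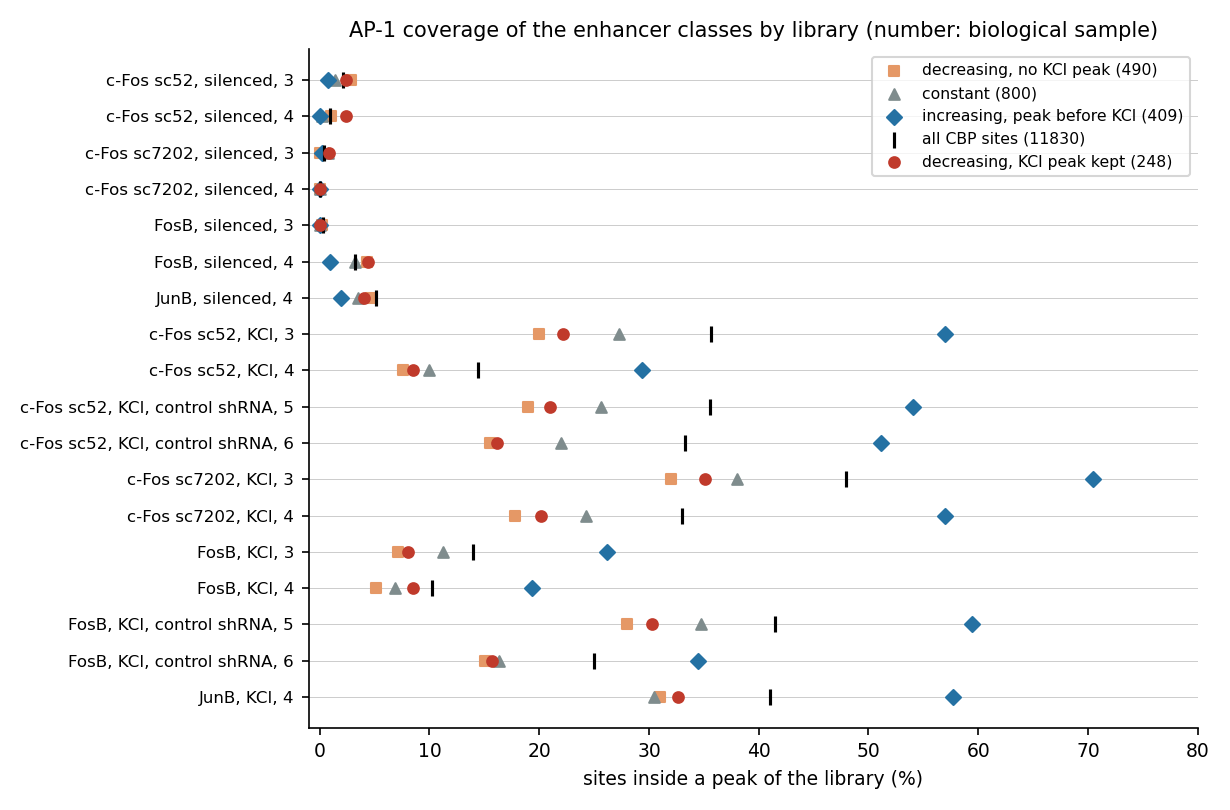
Share of sites inside an AP-1 peak (x axis, percent) in each of the 18 libraries without an shRNA against an AP-1 gene (y axis), for 5 sets of sites shown by colour. Each point is 1 library and set; after KCl the kept-peak enhancers lie close to the lost-peak and constant enhancers and below the pre-acetylated increasing enhancers in 11 of 11 libraries.

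Kept-peak enhancers were next compared with the classes most like them: lost-peak enhancers, constant enhancers, and the 409 increasing enhancers that already lay in an unstimulated H3K27ac peak, called pre-acetylated here. Libraries of 1 culture were averaged first, so each comparison is over 4 cultures. The exact two-sided sign-flip permutation test over 4 cultures cannot go below p = 0.13, so none of them could pass 0.05. Adjusted values are by Benjamini-Hochberg over the 6 comparisons.

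The largest of these differences was that from the pre-acetylated increasing enhancers. c-Fos peaks held 20.01% ± 6.40 of the kept-peak and 53.0% ± 8.48 of the pre-acetylated increasing enhancers (SD, n = 4 cultures). The difference by culture was -35.1 points in biological sample 3, -28.8 in 4, -33.1 in 5 and -34.97 in 6, with a mean of -32.98 ± 2.91 (SD; exact permutation p = 0.13, adjusted 0.15). For FosB it was -19.2 ± 7.54 points (SD, n = 4; exact permutation p = 0.13, adjusted 0.15), between -29.2 and -10.8. Kept-peak enhancers were the lower class in each of the 4 cultures for both proteins.

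Constant enhancers lay closer. For c-Fos the difference, kept-peak minus constant, was -4.00, -2.81, -4.66 and -5.87 points in biological samples 3, 4, 5 and 6, with a mean of -4.33 ± 1.28 (SD; exact permutation p = 0.13, adjusted 0.15). For FosB it was -3.19, 1.59, -4.51 and -0.65 points, with a mean of -1.69 ± 2.71 (SD; exact permutation p = 0.375). The FosB values fell on both sides of 0, so a difference was not detectable between these classes. The mean for FosB was -0.75 points without biological sample 5 and -2.78 without biological sample 4. JunB went the other way, with 2.16 points more kept-peak than constant enhancers inside a peak.

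Lost-peak enhancers also lay close. For c-Fos the difference, kept-peak minus lost-peak, was 2.61, 1.66, 1.99 and 0.62 points in biological samples 3, 4, 5 and 6, with a mean of 1.72 ± 0.83 (SD; exact permutation p = 0.13, adjusted 0.15). For FosB it was 0.92, 3.37, 2.28 and 0.62 points, with a mean of 1.80 ± 1.27 (SD; exact permutation p = 0.13, adjusted 0.15). JunB gave 1.64 points. Kept-peak enhancers were the higher class in each of the 4 cultures for both proteins, by at most 3.37 points.

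The classes differed in the score of their unstimulated H3K27ac peak, whose median was 722 at kept-peak, 145 at lost-peak and 392 at constant enhancers. Restricted to unstimulated scores of 400 or more, a choice made after seeing the data that left 193 kept-peak, 61 lost-peak and 397 constant enhancers, the c-Fos difference was 5.96 points from lost-peak and -7.58 points from constant enhancers. The FosB differences were 4.82 and -3.57 points. With peak centres required within 200 bp of the site, the c-Fos difference from lost-peak enhancers was 0.72 points and that from constant enhancers -2.82 points, and the FosB difference from constant enhancers was -0.67 points. In the authors' combined c-Fos list, a site within 500 bp was present for 27 kept-peak enhancers (10.9%; 26.3% of all sites) and 11.2% of lost-peak enhancers, which turned that direction (-0.34 points).

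Few kept-peak enhancers were held by AP-1 peaks in most libraries. A c-Fos peak was listed in at least 1 of the 6 KCl libraries at 108 members (43.5%; 56.6% of all sites), in at least 3 at 50 (20.2%; 36.5%) and in all 6 at 15 (6.05%; 11%). Of the 108, 44 (40.7%) had it in 1 library alone, against 21% of all sites with any such peak, 29.7% of lost-peak, 28.4% of constant and 11.99% of pre-acetylated increasing enhancers. FosB was listed in at least 1 of 4 libraries at 89 members (35.9%; 46.1%) and in all 4 at 6 (2.42%; 5.33%).

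Counting all 3 proteins, 132 members (53.2%; 64.2% of all sites) lay in a peak of at least 1 of the 11 KCl libraries and 2 (0.806%; 4.27%) in all 11. In none of the 18 libraries without an shRNA against an AP-1 gene lay 115 members (46.4%; 34.6% of all sites), against 48.8% of lost-peak, 43.0% of constant and 18.6% of pre-acetylated increasing enhancers. The share in all 11 was 1.22% (6 of 490) for lost-peak, 2.50% (20 of 800) for constant and 10.5% (43 of 409) for pre-acetylated increasing enhancers.

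**Figure D4:**
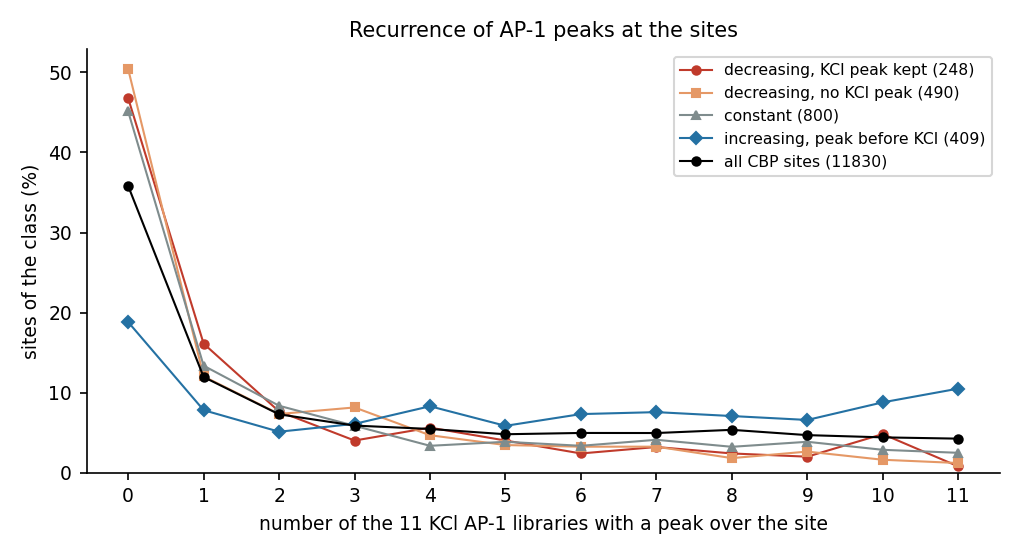
Share of sites (y axis, percent) inside an AP-1 peak in a given number of the 11 KCl libraries (x axis), for 5 sets of sites. Each line is 1 set; kept-peak enhancers have 2 of 248 sites (0.806%) in all 11 libraries, against 43 of 409 (10.5%) for pre-acetylated increasing enhancers.

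The 3 proteins shared many of their members. c-Fos, FosB and JunB were each listed after KCl at 57 members (22.98%; 31.4% of all sites). c-Fos alone was listed at 23 (9.27%; 9.74%), FosB alone at 12 (4.84%; 3.51%) and JunB alone at 8 (3.23%; 2.84%). Of the 81 members with JunB, 69 (85.2%) also had c-Fos, which is 63.9% of the 108 with c-Fos. Over all sites these shares were 90.1% of those with JunB and 65.3% of those with c-Fos. Of the 89 with FosB, 73 (82.0%) also had c-Fos, or 67.6% of the 108, against 89.8% and 73.04% over all sites. None of these shares of sites that also had another protein was higher at the members than over all sites. The shares with FosB alone (12 members) and JunB alone (8 members) were near those over all sites. FosB alone was listed at 3.67% of lost-peak, 4.50% of constant and 1.96% of pre-acetylated increasing enhancers. For JunB alone these shares were 3.67%, 2.63% and 0.978%. Alone means that no peak of the other proteins held the site in any of the 11 KCl libraries.

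AP-1 peaks at kept-peak enhancers were centred near the sites and mostly ranked in the middle of their lists. The median distance from site to peak centre was 43.5 to 74.8 bp over the 6 KCl c-Fos libraries. The median rank of these peaks lay between 37.9% and 67.9% from the top of the list by score. It was lower in the list than the median at constant enhancers in 6 of 6 c-Fos libraries, but in 2 of 4 FosB libraries and not in the JunB library (37.8% against 39.3%). It was lower than the median at pre-acetylated increasing enhancers in 6 of 6 c-Fos libraries, where that lay between 17.1% and 43.9%. Against lost-peak enhancers it was lower in 2 of 6 c-Fos libraries. For FosB the median rank was 35.03% to 44.9% from the top, lower in the list than at pre-acetylated increasing enhancers (22.1% to 26%) in 4 of 4 libraries.

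The members with the most AP-1 lists show the strong end of the class. The site at position 116830375 of chromosome 8 lay inside a peak in 11 of 11 KCl libraries and in 0 of 7 unstimulated ones. Its c-Fos peaks with sc52 had scores of 506 and 133 in biological samples 3 and 4, and those with sc7202 744 and 375. With control shRNA they were 459 and 375 in biological samples 5 and 6. The FosB peaks there had scores of 247, 145, 408 and 342 in biological samples 3, 4, 5 and 6, and the JunB peak 504. Its H3K27ac peak ran from 116829344 to 116831578 with a score of 167 without stimulation, and from 116829717 to 116831429 with a score of 66.1 after KCl, both low for the class.

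The other member in all 11 lists, at position 26556205 of chromosome 12, also lay in an AP-1 peak in 3 of 7 unstimulated libraries. A further 12 members had 10 of the 11 lists. Of these, positions 6645765 of chromosome 12, 118642405 of chromosome 4 and 71641195 of chromosome 15 are named because their AP-1 peaks had the highest mean rank within their lists. In that order they lay in an AP-1 peak in 2, 0 and 1 of the 7 unstimulated libraries. At position 6645765 the FosB peak of biological sample 6 with control shRNA had a score of 1055, in the top 0.191% of its list, and the JunB peak after KCl had a score of 887, in the top 0.253%. The H3K27ac peak there had a score of 379 without stimulation and 87.7 after KCl.

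At the opposite end, 109 of the 248 kept-peak enhancers (44.0%; 33% of all sites) lay in no AP-1 list of the 22 libraries, against 44.5% of lost-peak and 41.4% of constant enhancers. Some of these members had high-scoring H3K27ac peaks. Position 56444895 of chromosome 7 had the highest unstimulated score among them, 2665, and 1102 after KCl. Position 118654980 of chromosome 11 had 2580 and 589, and position 112164590 of chromosome 9 had 2526 and 949. Position 91906500 of chromosome 16 had 2273 and 380, and position 106458545 of chromosome 4 had 2207 and 651. All 5 were listed among the top 6.31% of unstimulated H3K27ac peaks.

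Some members carried AP-1 before stimulation. Peaks of at least 1 of the 7 unstimulated libraries held 23 members (9.27%; 7.31% of all sites), and of at least 2 libraries 8 (3.23%; 2.81%), shares near those of all sites. Of the 23, 22 (95.7%) lay in a KCl AP-1 list as well, against 717 of 865 (82.9%) over all sites. Position 116335005 of chromosome 7 had the most, with 4 unstimulated libraries and 7 of 11 after KCl. Its JunB peak had a score of 441 without stimulation and 398 after KCl, and its c-Fos peaks with sc52 had scores of 92.9 and 57.1 without stimulation and 93.2 and 75.6 after KCl in biological samples 3 and 4. Position 112005110 of chromosome 9, with 3 unstimulated and 9 KCl libraries, had an H3K27ac peak of 6560 bp and then 2202 bp. Position 69758000 of chromosome 3 and position 138060730 of chromosome 4 each had 2 unstimulated and 7 KCl libraries.

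An shRNA against c-Fos was used in biological samples 5 and 6, which also had the control shRNA. c-Fos peaks held 19 members (7.66%; 6.57% of all sites) under the c-Fos shRNA in biological sample 5 and 0 (0.414% of all sites; up to 1.21% by the count of 0) in biological sample 6, where the control shRNA gave 52 and 40. Both shRNA values lay below both control values, with means of 3.83% ± 5.42 and 18.5% ± 3.42 (SD, n = 2 each; exact two-sided permutation p = 0.333, the smallest possible). Of the members with a control peak, 12 of 52 (23.1%) had one under the c-Fos shRNA in biological sample 5, against 15.5% of all such sites, and 0 of 40 in biological sample 6, against 1.07%. In biological sample 5 the same share was 15.1% at lost-peak, 19.5% at constant and 23.1% at pre-acetylated increasing enhancers. Between the control libraries of both cultures, 31 of 52 members (59.6%) and 31 of 40 (77.5%) were shared, against 74.9% and 80.1% of all such sites. In biological samples 5 and 6 the c-Fos lists held 23578 and 19131 peaks with the control shRNA. Under the c-Fos shRNA they held 7808 and 1793. These shares also depend on the lengths of the lists, so those between controls cannot show what no effect of the shRNA would give. The difference of -14.7 points was -7.06 with scores of 100 or more and -0.81 with lists of the same length (1793 peaks).

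FosB peaks were still listed at kept-peak enhancers under the FosB shRNA. FosB peaks held 42 members (16.9%; 20.5% of all sites) in biological sample 5 and 30 (12.1%; 13.8%) in biological sample 6, where the control shRNA gave 75 and 39. The means were 14.5% ± 3.42 and 22.98% ± 10.3 (SD, n = 2 each; exact two-sided permutation p = 0.667, smallest possible 0.333), and the ranges overlapped. Of the members with a control peak, 33 of 75 (44.0%) kept one in biological sample 5, against 41.6% of all such sites. In biological sample 6 it was 22 of 39 (56.4%), against 39.8%. At lost-peak, constant and pre-acetylated increasing enhancers the share was 40.1%, 46.8% and 42.0% in biological sample 5. In biological sample 6 it was 36.5%, 42.0% and 43.3%. Between the control libraries of both cultures, 31 of 75 members (41.3%) and 31 of 39 (79.5%) were shared, against 52.4% and 86.9% of all such sites. The share of members under the FosB shRNA was thus no lower than that between control libraries in biological sample 5, but lower in biological sample 6. The FosB control lists held 22933 peaks in biological sample 5 and 14139 in 6. The share between them also depends on these lengths, so it cannot show what no effect of the shRNA would give. The difference of -8.47 points was -13.3 for biological sample 5, -3.63 for biological sample 6, and -2.02 with scores of 100 or more. With lists of the same length (7180 peaks) it turned to 2.02 points. Whether the c-Fos and FosB shRNAs differed in effect at these sites was not tested.

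**Figure D5:**
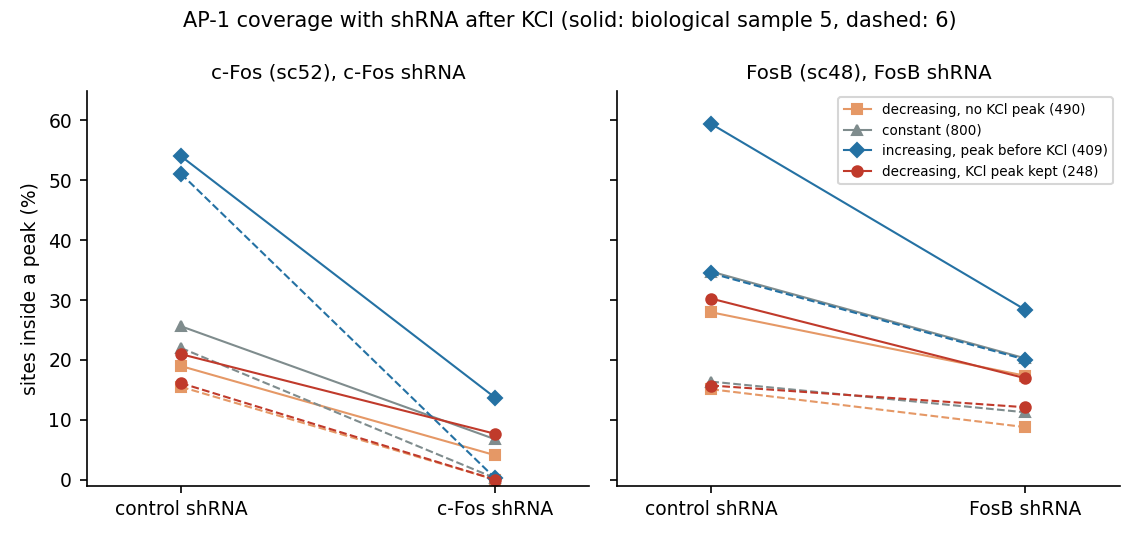
Share of sites inside a c-Fos peak (control and c-Fos shRNA) and inside a FosB peak (control and FosB shRNA) on the y axis in percent, for kept-peak enhancers and other sets. Each line joins the control and shRNA library of 1 biological sample, solid for 5 and dashed for 6. At kept-peak enhancers c-Fos goes from 20.97% to 7.66% and from 16.1% to 0%.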

How the data were processed

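Deposited peak lists and site lists were used as the authors made them. Reads were aligned with BWA to mm9, per the submitters' processing notes. Peaks were called with MACS, per the peak names in the deposited files. Versions, the control library and how sites were classed are not given in these sources. The score in the deposited lists is the authors' own; the lowest, 50, stands for p = 1e-05 on the scale of MACS. Site lists hold single positions. The members and lists were chosen with earlier results of these data known.

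A site counted as covered when it lay inside a peak. Shares over libraries were compared with exact two-sided permutation tests. Classes were compared with exact sign-flip tests over cultures. Biological sample numbers come from the labels, and libraries with the same number were treated as 1 culture. In all 6 groups the list of sample 3 was longer than that of 4. In all 4 groups that of 5 was longer than that of 6. Wilson 95% intervals and limits for a count of 0 (3 counts) cover counting error only. For lists of the same length, the lists of a comparison were cut to the best-scoring peaks, as many as its shortest list held (557 to 7180). Sites named were the 5 members in the most KCl AP-1 lists (ties by mean rank of the peaks), the 5 of highest unstimulated score in no AP-1 list, up to 5 in at least 2 unstimulated lists, and KCl peaks with the most members; sites that stand at an extreme of width or score were named after their values were seen. DNA sequence, motifs and genes were not analysed here, for want of an mm9 genome, nor was input DNA. Steps were tested on simulated data. Python 3.11.15, numpy 2.4.6 and scipy 1.17.1 were used.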

Additional observations from a re-analysis of the deposited data

How the results depend on the processing

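By exact permutation tests, no result passed except the c-Fos difference between KCl and unstimulated libraries at kept-peak enhancers (20.1 points), which was positive under all 13 alternatives and at p = 0.0286 in 6. That p counts 4 libraries from 2 cultures; with 1 mean per culture (20.1 points), added after seeing the data, it was 0.333. Its exact permutation p was 0.13 with the replicate block (20.1 points), 0.429 with lists of the same length (0.40 points), and 0.333, the smallest possible, with sc52 alone (12.9 points) and sc7202 alone (27.2 points). Leaving out 1 biological sample gave 13.1 to 27.02 points. The JunB difference (28.6 points) was 15.3 points with scores of 100 or more and 2.82 with lists of the same length. The c-Fos difference between kept-peak and lost-peak enhancers was positive in 14 of 15 alternatives and -0.34 points in the combined list. The FosB shRNA difference was negative in 9 of 10 and 2.02 points with lists of the same length. The other 7 comparisons kept their direction under all their alternatives. With the replicate block the exact p was 0.5 for the FosB stimulation difference and both shRNA differences, the smallest possible with 2 pairs, and without it the exact p for c-Fos at kept-peak against pre-acetylated increasing enhancers was 0.0286 (adjusted 0.171). The cause of these changes was not tested. Cutting lists to the same length removes peaks from the longer lists, so list length and binding cannot be told apart there. Precision is limited by 4 cultures for AP-1, by 1 merged list per condition for H3K27ac, by unknown depth, and by lists that record a peak as present or absent.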

Other observations

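The authors' combined c-Fos list did not hold every kept-peak enhancer that had c-Fos in each library. Of the 15 members inside a c-Fos peak in all 6 KCl libraries, 10 (66.7%) had a combined site within 500 bp, against 1108 of 1307 (84.8%) over all CBP sites. Of the 15 members, 5 also lay in a c-Fos list of an unstimulated or c-Fos shRNA library. A combined site was near 3 of these 5 (60%), against 67.0% over all such sites. It was near 7 of the other 10 (70%), against 92.7%. Among the 5, position 26556205 of chromosome 12 had none, and its nearest combined site was 202924 bp away. The median distance from a kept-peak enhancer to the nearest combined site was 32461 bp, against 35056 bp at lost-peak, 25609 bp at constant, 4929 bp at pre-acetylated increasing enhancers and 19905 bp over all sites.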
